A study of Mus musculus with 16 samples.

Results

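The comparison described here is that of livers from liver-specific Degs1 knockout mice with livers from control mice, both fed normal chow. It takes 8 of the 16 livers of the study, 4 knockout and 4 control, and the diet and genotype in each sample title chose them. The other 8 livers came from knockout and control mice on a high-fat diet, 4 of each. They enter the same fit, where they share in the estimate of the spread behind every chow p-value, and their own values are set beside those of chow. All 53801 genes of the count table were read, and the 14351 with enough counts for a test were tested. The labels say nothing of the Cre driver of the knockout, the alleles carried by the controls, or the strain, sex, age and time on the diet of the mice. The animal numbers of the chow knockouts ran from 179 to 187 and those of the chow controls from 194 to 220, so anything that goes with the animal number cannot be told apart from the genotype. These are bulk livers, in which fewer cells of a type and less RNA per cell cannot be told apart. Each library comes from a separately numbered animal.

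Degs1 encodes dihydroceramide desaturase, the enzyme of the endoplasmic reticulum that puts the double bond into dihydroceramide and so makes ceramide, in the last step of de novo ceramide synthesis. The steps before it are the condensation of serine with palmitoyl-CoA by serine palmitoyltransferase, a reduction, and the addition of a fatty acid by the ceramide synthases. Ceramides are the backbone of sphingomyelin and of the glycosphingolipids, and in liver they are known for their link to insulin signalling and to fat storage. The question put to the chow livers is which transcripts differ when Degs1 is knocked out in the liver and the diet is not high in fat.

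By edgeR's quasi-likelihood test, with p-values adjusted by Benjamini-Hochberg over all genes tested and a threshold of 0.05, 2 of 14351 genes fell in the chow knockout livers and 0 rose. These are 0.0139% and 0.0% of the genes tested. The 2 genes were Degs1 itself and Srebf1, the gene of the transcription factor SREBP-1, which drives the genes of fatty acid synthesis. At an unadjusted p under 0.05 the test gave 732 higher genes (5.1%) and 634 lower genes (4.42%), 9.52% together. DESeq2, run on the same genes, called 50 genes, 34 of them higher (0.237%) and 16 lower (0.112%), together 0.349% of the genes it tested, and both edgeR calls were among them. The count of edgeR calls was 0 without control 3 and without any one of the 4 knockouts, with 835 to 1507 genes at an unadjusted p under 0.05 in those 5 fits.

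Degs1 CPM (counts scaled to library size, with edgeR's TMM factors) were 85.5, 80.4, 87.9 and 84.9 in the 4 chow control livers. In the 4 knockout livers they were 39.3, 39.3, 37.4 and 35.9. All knockout livers lay below all controls, and the spread within each group was small: 84.7 ± 3.13 CPM (SD, n = 4) in controls against 38.0 ± 1.65 CPM (SD, n = 4) in knockouts. Thus 44.9% of the control level of Degs1 reads remained in the whole liver, a log2 fold change of -1.16 (SE 0.17, adjusted p = 0.0123, edgeR). A two-sided exact permutation test of the 8 livers gave p = 0.0286, the smallest that 70 assignments allow. The gene lies on chromosome 1 at 182275772 to 182282804 on the minus strand (GRCm38), and reads are counted over the whole gene, so the deleted part was not looked at alone. On the high-fat diet the log2 fold change of Degs1 was -1.23.

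Degs2, the other desaturase gene, had too few reads to be tested on chow. It had 0.237 ± 0.339 CPM (SD, n = 4) in controls and 0.0467 ± 0.0577 CPM (SD, n = 4) in knockouts, where 3 reads of the total count are worth 0.129 to 0.251 CPM in these libraries.

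**Figure D1:**
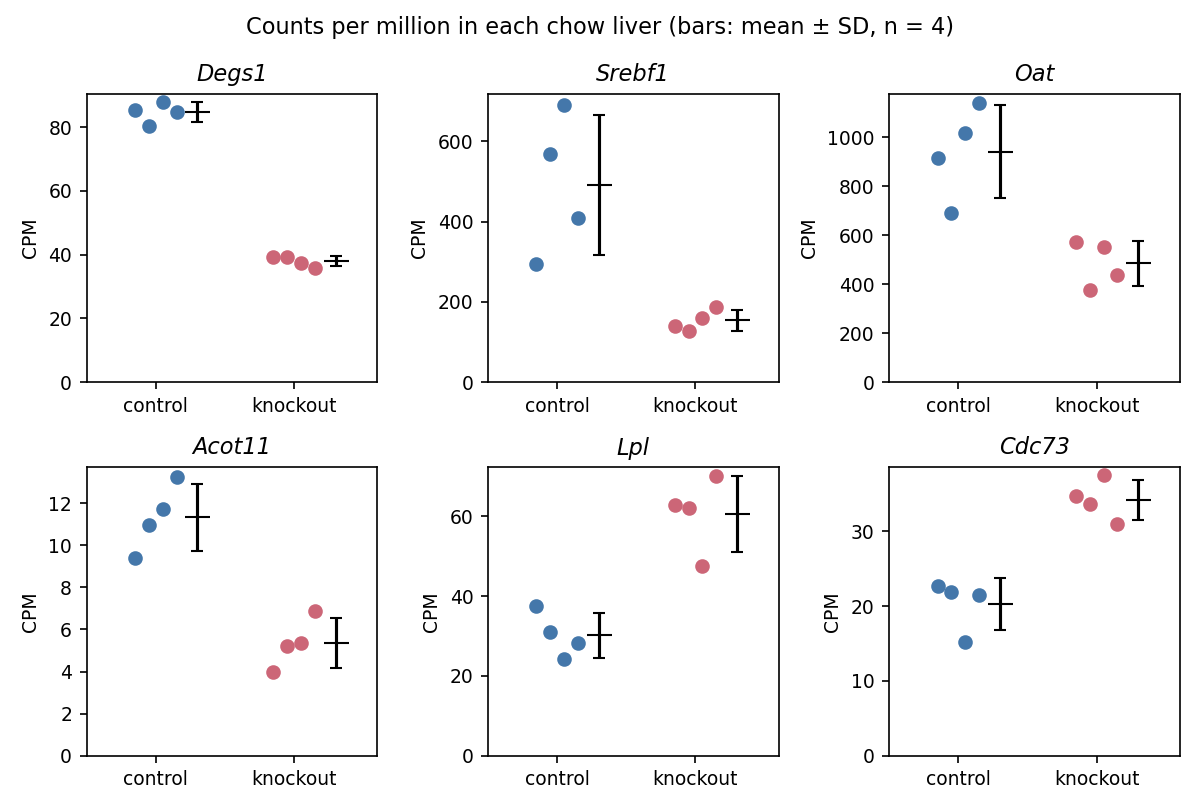
CPM of Degs1, Srebf1, Oat, Acot11, Lpl and Cdc73 in each of the 8 chow livers, on linear axes from 0, with 1 point per liver and the mean ± SD (n = 4) beside each group. All 6 are among the leading genes, which were picked for groups that do not overlap (6.34% of all genes tested), so the lack of overlap here is no result. The Srebf1 controls spread from 295 to 691 CPM.

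Srebf1 was the gene with the largest fall among those called. Its CPM were 295, 568, 691 and 408 in the 4 controls and 139, 128, 160 and 188 in the 4 knockouts. Every knockout liver was below the lowest control, and the controls spread far more than the knockouts, with 490.4 ± 174 CPM (SD, n = 4) against 154 ± 26.3 CPM (SD, n = 4). The level was 3.19-fold lower in the knockouts, a log2 fold change of -1.67 (SE 0.24, adjusted p = 0.0123, edgeR), and its adjusted p by DESeq2 was 5.98e-08. The fold change ran from -1.86 to -1.46 over 28 other settings, of which 20 called the gene. Without any 1 of the 4 knockouts it was not called, with adjusted p-values of 0.0549 to 0.118 (edgeR). Without control 3, the highest control, the log2 fold change was -1.46 with an adjusted p of 0.0764. With the 8 chow livers fitted alone it was -1.65 with an adjusted p of 0.115. Without both libraries that stand apart, knockout 1 and high-fat control 3, it was -1.62 with an adjusted p of 0.0563.

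On the high-fat diet the same gene stood at 479 CPM in controls and 415 CPM in knockouts, a log2 fold change of -0.21. The difference between the diets in the effect of the knockout was 1.47 on the log2 scale (SE 0.33), with an adjusted p of 0.211 by edgeR and of 0.0116 by DESeq2. Srebf1 was singled out by its chow difference, which this test contains, so the p-values are given as a description and nothing is read from them.

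Srebf1 has several start sites, and the counts are summed over the gene (chromosome 11, 60199089 to 60222581, minus strand, GRCm38), so its forms cannot be told apart here. The start furthest downstream, start site 1, is that of SREBP-1c, the form that prevails in liver. The bases just upstream of it are shown because Srebf1 was, apart from Degs1, the only gene called by edgeR. The 250 bases are from RefSeq (GRCm38.p6, chr11:60210472-60210721, minus strand), 5′ to 3′. Capitals mark matches, on either strand, to a sterol regulatory element (TCACCCNA), a CCAAT box (CCAAT) and a GC box (GGGCGG).
Srebf1 upstream of start site 1: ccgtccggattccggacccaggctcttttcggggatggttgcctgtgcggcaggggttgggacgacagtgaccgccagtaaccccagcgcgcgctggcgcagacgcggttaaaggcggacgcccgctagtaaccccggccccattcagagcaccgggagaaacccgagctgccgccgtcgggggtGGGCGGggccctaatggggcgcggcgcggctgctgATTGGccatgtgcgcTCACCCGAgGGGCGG
This window held 1 match to the sterol regulatory element, 1 CCAAT box, 2 GC boxes and 0 matches to the E-box string CACGTG. Other forms of the E-box were not searched for, so the window is not shown to lack one. Of 32536 windows of the same length before RefSeq start sites, 3.22% held a sterol regulatory element, 33.8% a CCAAT box, 33.0% a GC box and 6.04% the string CACGTG. The windows before start sites 2 and 3 of Srebf1, which are not shown, each held 0 matches to the sterol regulatory element. They held 0 and 1 CCAAT boxes and 2 and 0 GC boxes. A match is a string of letters and no sign of binding.

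SREBP-1 is kept in the endoplasmic reticulum by Scap and the Insig proteins and is cut free by a pair of proteases, and its textbook targets are the enzymes that make fatty acids. Of the 16 tested genes of a list of lipogenic regulators, 1 passed the test, Srebf1, and 13 of 16 had a log2 fold change below 0. The median was -0.18, beside -0.01 over all genes tested. Insig1, which holds Scap back, had 702, 384, 510 and 621 CPM in controls and 320, 410, 299 and 308 CPM in knockouts. The groups overlapped by 1 liver, and the log2 fold change was -0.73 (SE 0.22, adjusted p = 0.366, edgeR). Srebf2, whose product drives cholesterol synthesis, was at 49.0 ± 9.90 CPM in controls and 43.0 ± 5.83 CPM in knockouts (SD, n = 4 each), a log2 fold change of -0.19 (SE 0.23). Mlxipl, the gene of the carbohydrate-responsive factor ChREBP, was at 0.23 (SE 0.29), and Nr1h3, the gene of the oxysterol receptor LXRα, at -0.21 (SE 0.17).

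The 20 tested genes of fatty acid synthesis gave 0 calls, with 7 of 20 above 0 and a median log2 fold change of -0.09. Fasn, the fatty acid synthase, had 2141, 2709, 1379 and 1924 CPM in controls and 519, 1793, 1046 and 2037 CPM in knockouts. The groups overlapped, and the log2 fold change of -0.60 had an SE of 0.37. Scd1, which desaturates stearoyl-CoA, had 18170, 9385, 4769 and 4492 CPM in controls and 12980, 18330, 18370 and 19300 CPM in knockouts. Control 1 was as high as the knockouts, and the log2 fold change was 0.91 (SE 0.62). The acetyl-CoA carboxylase Acaca was at -0.08 (SE 0.20), the citrate lyase Acly at -0.31 (SE 0.25) and the elongase Elovl6 at -0.08 (SE 0.33) on the log2 scale. Elovl2, an elongase of polyunsaturated fatty acids, was the 1 member of the list whose groups did not overlap, with 714 ± 133 CPM in controls and 959 ± 81.2 CPM in knockouts (SD, n = 4 each), a log2 fold change of 0.42 and an adjusted p of 0.5 by edgeR. Over all genes tested, the groups did not overlap for 494 genes higher in knockouts (3.44%) and 416 lower (2.9%), together 6.34%.

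Of 22 cholesterol synthesis and uptake genes, 0 passed and 0 had groups that did not overlap, with a median of -0.15 that ran from -0.32 to 0.12 when each chow liver was left out. Among 20 genes of triglyceride synthesis and lipid droplets 0 passed, and the median was -0.07. Agpat2, which makes phosphatidic acid, had a log2 fold change of -0.43 (SE 0.15, adjusted p = 0.437, edgeR), and Dgat2, which adds the last fatty acid of triglyceride, one of -0.30 (SE 0.15).

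The sphingolipid pathway was read in 5 lists with 43 genes, of which 35 were tested. Degs1 was the 1 gene that passed. The unadjusted p was under 0.05 for 5 others, against 9.52% of all genes tested, and the median of all 35 was -0.06, with 16 above 0 and 19 below. The log2 fold change of every other gene tested lay between -1.29 and 0.48. Upstream of Degs1, the log2 fold change was -0.18 (SE 0.15) for Sptlc1 and 0.00 (SE 0.14) for Sptlc2, both subunits of serine palmitoyltransferase. The reductase gene Kdsr was at 0.11 (SE 0.19). The Ormdl proteins, which restrain serine palmitoyltransferase, had log2 fold changes of -0.30 (Ormdl3, SE 0.15), -0.27 (Ormdl2, SE 0.17) and 0.03 (Ormdl1, SE 0.27). Among them only Ormdl2 had groups that did not overlap. Cers2, the most read ceramide synthase gene of these livers, had 290, 320, 361 and 382 CPM in controls and 329, 278, 258 and 279 CPM in knockouts. The groups overlapped, and the log2 fold change was -0.24 (SE 0.13, adjusted p = 0.543, edgeR). Cers6, a synthase that uses shorter acyl chains, was at -0.33 (SE 0.21).

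Downstream of Degs1, the smallest p was that of Smpd1, the acid sphingomyelinase, which frees ceramide from sphingomyelin in lysosomes. It had 52.1, 59.4, 73.2 and 64.2 CPM in controls and 43.6, 45.2, 45.6 and 51.8 CPM in knockouts. The groups did not overlap, and the log2 fold change was -0.42 (SE 0.12, adjusted p = 0.353, edgeR). Gba2, a glucosylceramidase outside the lysosome, had a log2 fold change of -0.40 (SE 0.19, adjusted p = 0.516, edgeR) with groups that did not overlap. Col4a3bp, which encodes the ceramide carrier CERT, had 52.9, 45.7, 39.6 and 49.6 CPM in controls and 57.1, 55.7, 60.3 and 54.1 CPM in knockouts. All knockouts lay above all controls, with a log2 fold change of 0.28 (SE 0.11, adjusted p = 0.492, edgeR). Smpd3, a neutral sphingomyelinase, had 3.04, 8.83, 5.03 and 13 CPM in controls and 5.07, 0.592, 3.75 and 3.14 CPM in knockouts, which overlapped. Of the 7 tested genes of the ceramidases and of sphingosine 1-phosphate, 0 had an unadjusted p under 0.05, and their log2 fold changes lay between -0.19 and 0.16. Asah1, the acid ceramidase, was at -0.06 (SE 0.19) and Sgpl1, the sphingosine 1-phosphate lyase, at 0.03 (SE 0.13).

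**Figure D2:**
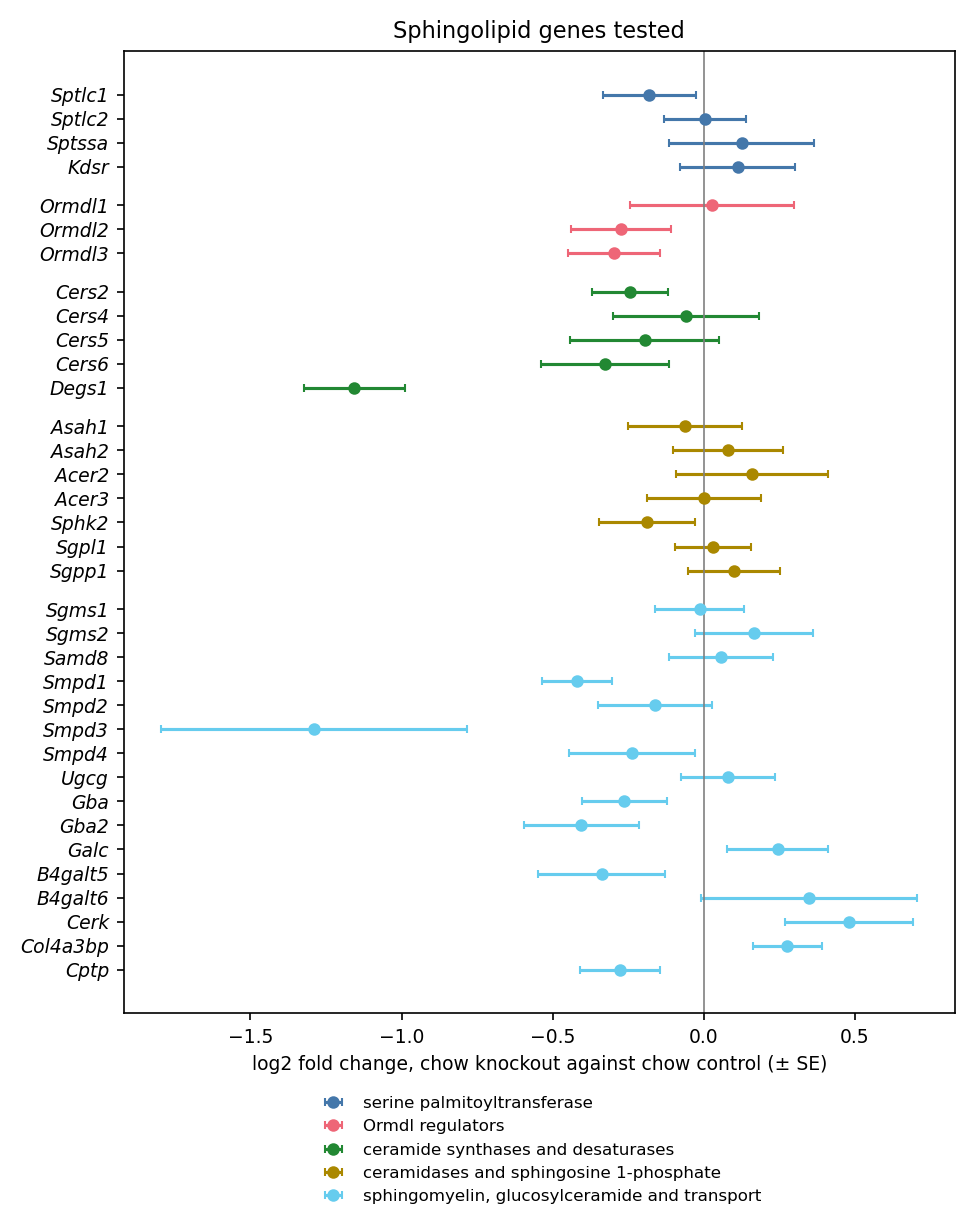
Log2 fold change of the 35 tested sphingolipid genes in chow knockout against chow control livers, with bars of 1 SE, ordered by step of the pathway. Degs1, at -1.16, is the 1 gene called by edgeR.

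The 15 genes with the smallest p among those lower in all knockouts, at a mean log2 CPM of at least 2, had log2 fold changes with a median of -0.82. Degs1 and Srebf1 apart, their adjusted p by edgeR was 0.128 to 0.353, so none of the other 13 passed that test. Acot11, a thioesterase that splits fatty acyl-CoA, had 9.41, 11, 11.7 and 13.3 CPM in controls and 4.0, 5.21, 5.38 and 6.90 CPM in knockouts. The log2 fold change was -1.07 (SE 0.20, adjusted p = 0.128 by edgeR and 0.00119 by DESeq2). Oat, the ornithine aminotransferase of the hepatocytes around the central vein, had 915, 691, 1019 and 1141 CPM in controls and 571, 378, 554 and 437 CPM in knockouts. Its log2 fold change was -0.96 (SE 0.18, adjusted p = 0.128 by edgeR and 0.000973 by DESeq2). In high-fat knockouts the log2 fold change of Oat was -1.07, and edgeR called it there with an adjusted p of 0.0257.

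Mup17, one of the major urinary proteins that male liver secretes, had 213, 94.0, 581 and 165 CPM in controls and 51.7, 15.8, 3.38 and 6.97 CPM in knockouts. No knockout reached the lowest control, but the livers of each group differed several-fold among themselves (log2 fold change -3.78, SE 0.73, adjusted p = 0.166, edgeR). The Mup genes are near-identical copies, and the labels do not say how reads were divided between them, so these values are uncertain. Mup15 was at -2.11 (SE 0.59) and Mup11 at -0.77 (SE 0.36), and the whole list of 22 male-biased liver genes had a median of -0.23, which ran from -0.34 to -0.11 when each chow liver was left out. The 12 tested genes of a list of female-biased liver genes had a median of -0.32, with 9 of 12 below 0 and 0 calls. Their median ran from -0.48 to 0.03 when each chow liver was left out, so a lower median was not particular to the male-biased list. The growth hormone axis, which sets the sex bias of liver genes, gave 0 calls among 14 genes, with Igf1 at 0.17 (SE 0.13) and Igfals at -0.55 (SE 0.20).

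The lower genes also held Ggt6, a member of the gamma-glutamyltransferase family, at -0.86 (SE 0.18), and Hes6, a transcription factor of the Hairy and Enhancer of split family, at -0.82 (SE 0.19). Shpk, the sedoheptulokinase, was at -0.50 (SE 0.12), and Prnp, the gene of the prion protein, at -0.50 (SE 0.12). Tomm40, the pore of protein import into mitochondria, had 25.2 to 27.2 CPM in controls and 16.4 to 20.0 CPM in knockouts, a log2 fold change of -0.50 (SE 0.12, adjusted p = 0.306, edgeR). Sigirr, which damps interleukin-1 receptor signalling, was at -0.69 (SE 0.17). Gna14, a G protein alpha subunit, was at -0.86 (SE 0.21). Oasl1, an interferon-induced gene, had 22.3, 16.1, 18.4 and 14 CPM in controls and 10.4, 9.65, 10.9 and 10.7 CPM in knockouts, a log2 fold change of -0.76 (SE 0.18, adjusted p = 0.276, edgeR).

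The 15 leading genes on the higher side had a median log2 fold change of 0.56 and adjusted p-values of 0.128 to 0.353 by edgeR. Cdc73, a subunit of the PAF1 complex that travels with RNA polymerase II, had 22.7, 21.9, 15.2 and 21.6 CPM in controls and 34.7, 33.6, 37.5 and 31.0 CPM in knockouts. The groups lay well apart, with a log2 fold change of 0.75 (SE 0.14, adjusted p = 0.128 by edgeR and 0.000973 by DESeq2). Lpl, the lipoprotein lipase, which most adult liver cells express little, had 37.6, 30.9, 24.2 and 28.1 CPM in controls and 62.8, 62.1, 47.5 and 70.0 CPM in knockouts. Its level was 2.01-fold higher (log2 fold change 1.01, SE 0.26, adjusted p = 0.353 by edgeR and 0.043 by DESeq2). Arhgap5, a GTPase-activating protein, had 178, 180, 180 and 175 CPM in controls and 264, 226, 228 and 228 CPM in knockouts. The controls hardly varied, and the log2 fold change was 0.41 (SE 0.11, adjusted p = 0.353, edgeR).

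Others among the leading higher genes act on proteins or RNA. Naa15, Naa30 and Naa50, which are parts of N-terminal acetyltransferases, stood on the log2 scale at 0.45 (SE 0.12), 0.47 (SE 0.13) and 0.46 (SE 0.12). Syncrip, an RNA-binding protein, was at 0.55 (SE 0.12). Fbxo30, a subunit of a ubiquitin ligase, had 17.5 to 21.7 CPM in controls and 28.3 to 33.0 CPM in knockouts (log2 fold change 0.63, SE 0.13). Dcun1d1, which helps to attach Nedd8 to cullins, had 28.7 to 32.6 CPM in controls and 39.7 to 45.9 CPM in knockouts (log2 fold change 0.47, SE 0.11). Outside these 15, DESeq2 also called Ptbp3, a regulator of splicing, at 0.45 (SE 0.12) in edgeR's fit.

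**Figure D3:**
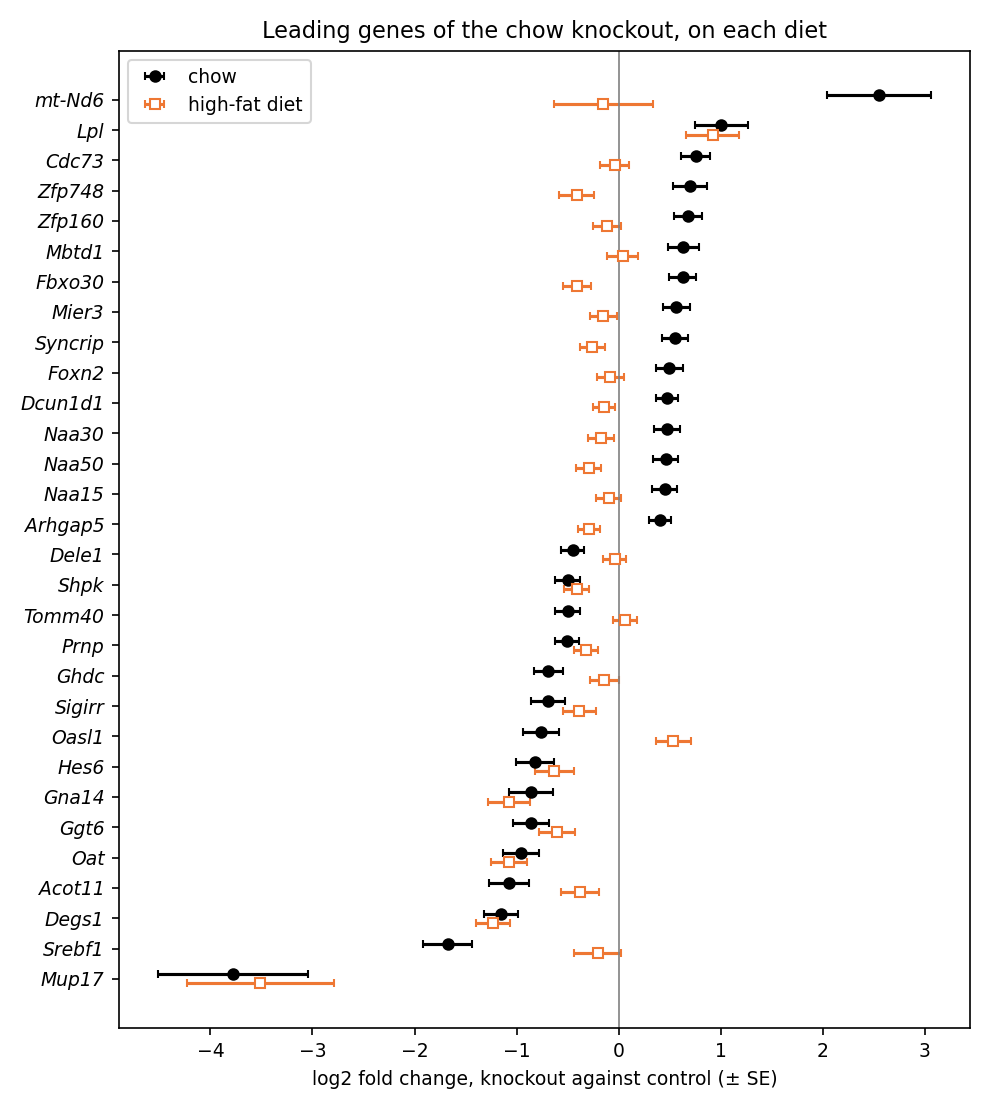
Log2 fold change of knockout against control on chow and on the high-fat diet for the 15 leading genes in each direction on chow, with bars of 1 SE. On the high-fat diet 13 of the 15 lower genes and 2 of the 15 higher genes have the sign they have on chow. The 13 include Degs1, the gene knocked out on both diets.

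The livers on the high-fat diet are separate animals, but they share the filter and the estimate of the spread with the chow livers, so the choice of the leading genes by p was not wholly free of them. Among all genes tested, 59.5% had the same sign of log2 fold change in both diets, and edgeR called 16 genes in the high-fat knockouts (0.111%). Of the 15 leading lower genes of chow, 13 were also below 0 on the high-fat diet, with a median there of -0.38. On that diet 3 passed the test: Degs1, Oat and Gna14. Degs1 is the gene knocked out on both diets, so its fall there was given by the design. Without high-fat control 3, whose library stands apart, 12 of the 15 were below 0, the median was -0.33 and edgeR called 11 genes in all on that diet. With the share of sense-intronic and TEC counts as a covariate 12 of the 15 were below 0 and edgeR called 0 genes there. The exceptions among all livers were Oasl1, at 0.54 (SE 0.17) on the high-fat diet, and Tomm40, at 0.06. Of the 15 leading higher genes, 2 had the same sign on the high-fat diet and the median there was -0.15, or 3 and -0.19 without high-fat control 3. Those 2 were Lpl, at 0.92 (SE 0.26), and Mbtd1, at 0.04. Lpl had 23.3 CPM in high-fat controls and 44.1 CPM in high-fat knockouts. The test of the difference between the diets called 0 genes by edgeR (1615 genes, 11.3%, at an unadjusted p under 0.05), and DESeq2 called 83. That test contains the chow difference by which the genes were chosen, so it is not read further for them.

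Some measures of the libraries moved with the genotype on chow. The share of counts on features annotated as sense-intronic or as TEC, a class of transcripts that still awaits experimental proof, was 0.0263 to 0.0411% in control livers and 0.0463 to 0.0878% in knockout livers. The ranges did not overlap. Malat1, a nuclear RNA, had 249 to 666 CPM in controls and 690 to 1360 CPM in knockouts. Such features made up 23.5% of the 732 genes higher at an unadjusted p under 0.05, 0% of the 634 lower ones and 4.18% of all genes tested. The higher genes had a median exonic length of 4935 bases and the lower genes one of 3006, against 4174 over all genes tested. On the high-fat diet the share was 0.0218 to 0.164% in controls and 0.162 to 0.191% in knockouts, and Malat1 had 180 to 4028 CPM in controls and 2949 to 3512 CPM in knockouts. High-fat control 3 held the lowest value of both. Of the 50 genes that DESeq2 called, 9 were of these kinds. With log2 of the share as a covariate, edgeR called 0 genes. Degs1 had a log2 fold change of -0.96 (adjusted p = 0.0543) and Srebf1 one of -1.67 (adjusted p = 0.0543). The share is split by genotype on chow, so such a fit cannot tell its part from that of the knockout, here or for the lists. The 15 leading lower genes had a median of -0.79 in that fit and the 15 leading higher genes one of 0.53. All 15 kept their sign on each side. They were chosen from these same chow livers as genes whose groups do not overlap, so a kept sign says little.

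Knockout 1 stood apart from the others: its correlation of log2 CPM with the other knockouts was 0.952 to 0.956, where those had 0.975 to 0.98 with each other and the controls 0.973 to 0.978. Without it the leading lower and higher genes had medians of -0.72 and 0.60. These genes were chosen with all chow livers in the fit, so this is no independent check of them. Total counts were 14417061 to 23250885 in control and 11938596 to 18235419 in knockout livers.

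**Figure D4:**
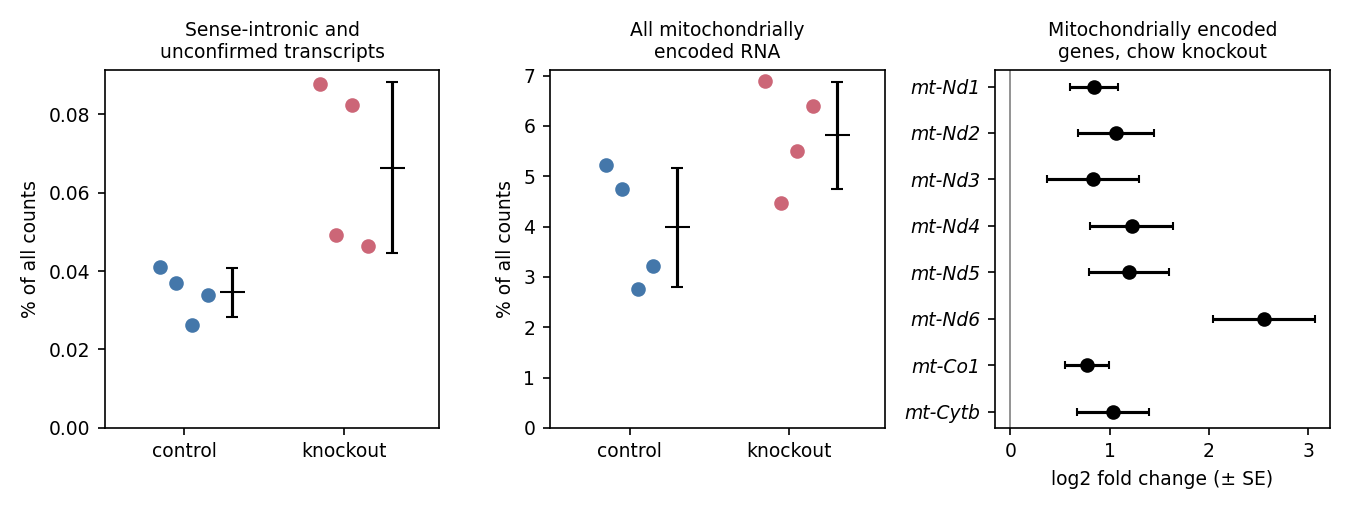
Left and middle, the share of all counts (%) on sense-intronic and TEC features and on mitochondrially encoded RNA in each chow liver, with 1 point per liver and the mean ± SD (n = 4); right, the log2 fold change with its SE of the 8 mitochondrially encoded genes tested. The first share does not overlap between the genotypes, the second does (2.75 to 5.23% in controls, 4.46 to 6.90% in knockouts), and all 8 genes lie above 0. The second share takes all mitochondrially encoded RNA, most of it outside the list of genes. The summed level of the list was 7927 to 17050 CPM in controls and 18770 to 33810 CPM in knockouts, which do not overlap.

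The transcripts encoded by mitochondrial DNA had the highest median of all lists, 1.05, with 8 of 13 genes tested, 0 calls and 7 with an unadjusted p under 0.05, all higher, against 5.1% of all genes tested. mt-Co1, a subunit of cytochrome c oxidase, had 12780, 7344, 6069 and 9741 CPM in controls and 20680, 13070, 14050 and 13510 CPM in knockouts. The groups did not overlap, though the highest control came close to the lowest knockout (log2 fold change 0.77, SE 0.22, adjusted p = 0.353, edgeR). mt-Nd6, which is encoded on the other strand, had 18.9, 17.7, 9.29 and 14.9 CPM in controls and 63.9, 29.1, 230.4 and 32.3 CPM in knockouts. Knockout 3 alone set much of its log2 fold change, which was 2.55 with it and 1.46 without it (adjusted p = 0.171 and 0.444, edgeR). The other 5 genes of the list, mt-Co2, mt-Co3, mt-Atp6, mt-Atp8 and mt-Nd4l, had almost no counts in any liver. The labels do not say how reads with several matches or from either strand were counted, so whether these low counts come from the cells or from the counting cannot be told, and the list and the mitochondrial share of counts measure only the genes that were counted. With the share of sense-intronic and TEC features as a covariate the median of the list on chow was 0.64. On the high-fat diet the median was -0.06 without the covariate and -0.49 with it. Without high-fat control 3 it was -0.12 on that diet, with no covariate.

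Most subunits of the respiratory chain are encoded in the nucleus. Of 42 such genes tested, 0 passed, 40 of 42 had a log2 fold change below 0, and the groups did not overlap for 9, all lower, where 2.9% of all genes tested were of that kind. The median was small, -0.18. Uqcrc1, a core subunit of complex III, had 271, 296, 342 and 267 CPM in controls and 204, 212, 232 and 254 CPM in knockouts, a log2 fold change of -0.38 (SE 0.15, adjusted p = 0.469, edgeR). Cox5b, a subunit of complex IV, was at -0.43 (SE 0.18). The 46 ribosomal protein genes had a median of -0.17, with 38 of 46 below 0 and 0 calls. With the share of sense-intronic and TEC features as a covariate the median was 0.15 for the ribosomal proteins and 0.00 for the respiratory chain. The share does not overlap between the chow genotypes, so its part in these values cannot be told apart from that of the genotype.

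**Figure D5:**
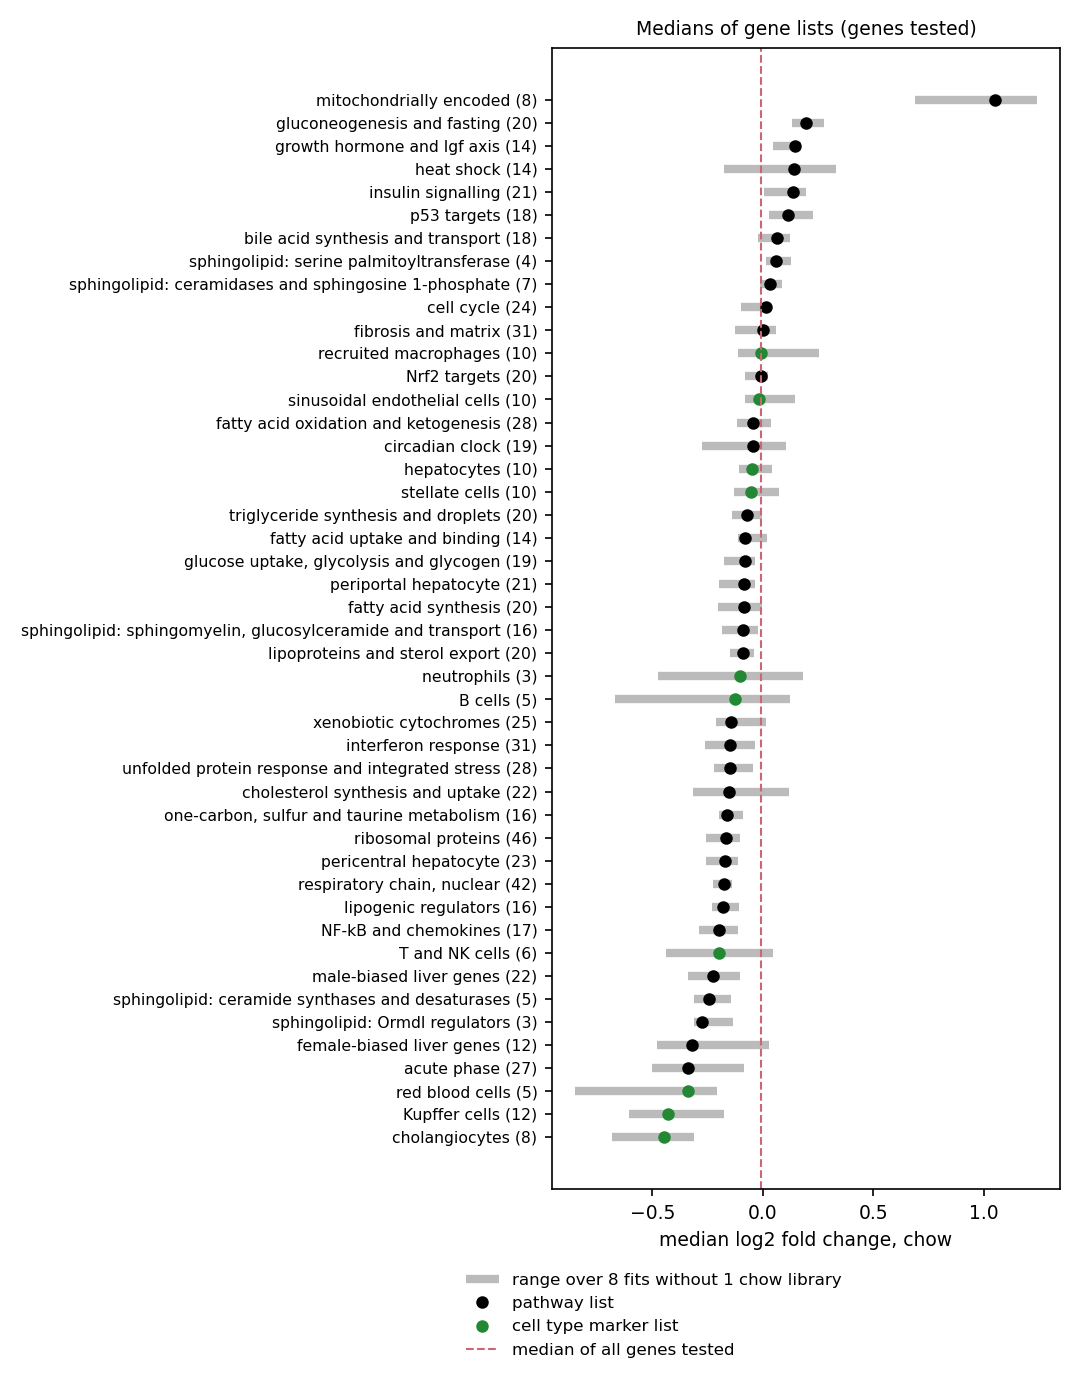
Median log2 fold change of each gene list in chow knockout against chow control livers, with the number of genes tested in brackets and a grey bar for its range over the 8 fits that leave out 1 chow library each; lists with fewer than 3 genes tested are not drawn. The mitochondrially encoded genes stand highest, at 1.05, and the median of all genes tested, at -0.01, is the dashed line.

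Ceramides are known for their link to insulin signalling, whose 21 tested genes gave 0 calls and a median of 0.14. The median was as low as 0.01 when 1 chow liver was left out, and it was -0.02 with the share of sense-intronic and TEC counts as a covariate. Akt2, the kinase through which insulin acts in hepatocytes, had 63.8, 65.9, 66.8 and 61.7 CPM in controls and 57.0, 57.0, 53.2 and 54.3 CPM in knockouts. The groups did not overlap, but the difference was small (log2 fold change -0.22, SE 0.10, adjusted p = 0.509, edgeR). Irs2, an insulin receptor substrate, was at -0.50 (SE 0.33). The 20 genes of gluconeogenesis and fasting gave 0 calls and a median of 0.19. Pck1, which commits carbon to glucose, had 2952, 3185, 1999 and 2438 CPM in controls and 3859, 5049, 3433 and 2804 CPM in knockouts. One knockout lay within the controls (log2 fold change 0.52, SE 0.20, adjusted p = 0.469, edgeR). G6pc, the glucose-6-phosphatase, ranged from 373.5 to 1103 CPM in controls and from 216 to 1428 CPM in knockouts. Per1, a clock gene that also answers to glucocorticoids, had 8.02, 29.0, 5.91 and 7.98 CPM in controls and 29.1, 28.9, 17.8 and 25.3 CPM in knockouts, so control 2 was as high as the knockouts.

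The acute phase list held 27 tested genes, 24 of them below 0, with 0 calls, 7 lower at an unadjusted p under 0.05 (4.42% over all genes tested) and a median of -0.34. Hp, haptoglobin, had 2208, 2975, 5332 and 3101 CPM in controls and 1861, 2029, 1886 and 2595 CPM in knockouts. Control 3 was the highest, and the log2 fold change was -0.70 (SE 0.23, adjusted p = 0.407, edgeR). Lrg1, a secreted glycoprotein, was at -0.67 (SE 0.19) and Orm1, an orosomucoid, at -0.55 (SE 0.21). The median of the list ran from -0.50 to -0.09 when each chow liver was left out. With the share of sense-intronic and TEC counts as a covariate it was -0.17. Kupffer cell markers, the resident macrophages of the liver, gave 0 calls among 12 genes, with 11 of 12 below 0 and a median of -0.43. That median ran from -0.61 to -0.18 when each chow liver was left out and was -0.07 with the share of sense-intronic and TEC counts as a covariate. Their summed level was 572 to 1250.0 CPM in controls and 624.5 to 852 CPM in knockouts, and the part of these cells in the acute phase values was not tested.

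Interferon response genes had a median of -0.15 on chow, with 26 of 31 below 0 and 0 calls, and one of 0.85 on the high-fat diet. The chow median ran from -0.26 to -0.04 when each chow liver was left out and was -0.01 with the covariate. Fibrosis and matrix genes had a median of 0.00 on chow, with 0 of 31 called, and one of 0.68 on the high-fat diet. Whether these medians differ between the diets was not tested. The 28 genes of fatty acid oxidation and ketogenesis gave 0 calls and a median of -0.04. Fgf21, a hormone of the fasted liver, was at 1.03 (SE 0.58), and 1 knockout held the highest value, 6.69 CPM. Cyp4a14, a fatty acid hydroxylase, was read at 28.8 to 1367 CPM in controls and 17.8 to 142 CPM in knockouts. Genes of the unfolded protein response and integrated stress gave 0 calls among 28, with a median of -0.15. The chaperone gene Calr was at -0.55 (SE 0.20), the disulfide isomerase Pdia6 at -0.58 (SE 0.20) and the co-chaperone Dnajb9 at 0.67 (SE 0.24). Among 18 p53 targets 0 passed, and the groups did not overlap for 3 on the higher side and 1 on the lower, against 3.44% and 2.9% of all genes tested. One was Eda2r, a receptor of the tumour necrosis factor family, which had 0.899, 1.6, 0.924 and 1.26 CPM in controls and 4.29, 2.37, 4.77 and 4.58 CPM in knockouts (log2 fold change 1.77, SE 0.39, adjusted p = 0.249 by edgeR and 0.0068 by DESeq2). Another was Mdm2, which marks p53 for breakdown, at 0.34 (SE 0.13). Bbc3, which encodes the cell death protein PUMA, lay in the other direction, at -1.06 (SE 0.31), with groups that overlapped.

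The defining markers of liver were present. Albumin (Alb) took 77160 to 88770 CPM in controls and 88170 to 105700 CPM in knockouts, and the summed level of 10 hepatocyte markers was 110100 to 130800 CPM in controls and 120300 to 142200 CPM in knockouts. The hepatocyte list had a median of -0.05 and 0 calls. Markers of sinusoidal endothelial cells had a median of -0.02 and those of stellate cells one of -0.05, each with 10 tested and 0 called. Cholangiocyte markers had a median of -0.45, with 7 of 8 below 0, and a summed level of 56.2 to 116 CPM in controls and 61.1 to 95.2 CPM in knockouts. Of 10 markers of exocrine pancreas, 1 was tested, and Prss1, Try4 and Amy2a5 were at 0.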

How the data were processed

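Per the labels' protocols, total liver RNA was depleted of ribosomal RNA with Ribo-Zero Gold and made into stranded libraries (Illumina TruSeq). The authors deposited raw counts per Ensembl gene, whole numbers that were not normalized. The submitters' processing notes name featureCounts 1.5.1, STAR 2.5.4a, DESeq2 and the build GRCm38. What each tool did, which strand setting and annotation release were used and how reads with several matches were counted are not stated there. Without a known strand setting, overlapping and antisense genes cannot be told apart. All 16 columns were matched to a sample label. Symbols and positions came from a GENCODE annotation of the same build for 53706 of the 53801 gene IDs.

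The sample titles gave the groups. Counts were fitted in R 4.3.3 with edgeR 4.0.16 (TMM scaling, filterByExpr with a minimum count of 10, quasi-likelihood F test, all 16 livers with 1 term per group), so all groups share 1 estimate of the spread, with the Benjamini-Hochberg adjustment over 14351 genes. Printed CPM are scaled by the counts on tested genes and the TMM factor. The script was tested on simulated data. It called 65% of 100 genes changed by 1 on the log2 scale and 91% of 100 changed by 2, with 5 false calls. The changed genes left out those with the fewest reads and were far more than were called in the livers, which eases the adjusted threshold. Each gene was drawn on its own, with no library that stands apart. The shares called are thus not the chance of finding such a change in these livers. DESeq2 1.42.0, limma-voom (limma 3.58.1), other scalings and filters, each library left out and the chow livers alone were alternatives. A further alternative took log2 of the share of sense-intronic and TEC counts as a covariate. The sign and the count of calls at an adjusted p under 0.05 were read for each.

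Genes were named by a rule: Degs1, genes called by edgeR, up to 15 genes in each direction by p with groups that do not overlap and a mean log2 CPM of 2 or more, genes called by DESeq2 at the same mean, tested sphingolipid genes, and up to 4 members per list by p. Further members of the lists, such as Srebf2, Mlxipl, Nr1h3, Scd1, Acaca, Acly, Elovl6, G6pc, Fgf21 and Orm1, were named for their role. The comparison, members and lists were chosen with earlier results of these data known. Some members of the lists are not reported here. No list was tested as a set; lists are described by counts and medians. The 16 livers share no pairing in the labels.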

Additional observations from a re-analysis of the deposited data

Results flagged for a closer look

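In a group of 4 livers, a value was singled out when its gap to the nearest of the other livers, divided by the range of the group, was above Dixon's critical value at the 95% level. Chance singles out about 1 in 20 groups, and 12 of 176 groups of values were singled out for the genes named above.

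Among controls, Cdc73 was low in control 3, at 15.2 CPM against 21.6 to 22.7 CPM in the others. Per1 was high in control 2, at 29.0 CPM against 5.91 to 8.02 CPM.

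Knockout 1, the library that correlated least with the other knockouts, held 7 of the 12 values. It was the highest knockout for Arhgap5 (264.5 CPM against 226 to 228 CPM), Dgat2 (475 CPM against 393 to 407 CPM) and Irs2 (43.8 CPM against 26.9 to 28.3 CPM). It was also the highest for Mlxipl (103 CPM against 59.8 to 67.1 CPM) and mt-Co1 (20680 CPM against 13070 to 14050 CPM). It was the lowest for Scd1 (12980 CPM against 18330 to 19300 CPM) and Sptlc1 (22.3 CPM against 31.2 to 32.1 CPM). Fgf21 was high in knockout 2, at 6.69 CPM against 1.03 to 1.95 CPM. mt-Co2 in knockout 2 (0.178 CPM) and mt-Co3 in knockout 4 (0.0683 CPM) stood against 0 CPM in the other knockouts, and both lie at or under what 3 reads are worth.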

How the results depend on the processing

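The 2 calls of the chow comparison became 50 with DESeq2, 4 with limma-voom and quality weights, 308 with no filter, 0 with the share of sense-intronic and TEC counts as a covariate (1624 genes at an unadjusted p under 0.05) and 1 with the chow livers alone; leaving out 1 library gave 0 to 4. Without a filter 36204 genes were tested and edgeR's prior degrees of freedom became infinite, against 5.83. The interaction called 0 genes (1615 at an unadjusted p under 0.05), 83 with DESeq2, 9 with quality weights and 259 with no filter; leaving out 1 library gave 0 to 1. Of the 308 calls with no filter, 199 were higher, where both edgeR calls were lower. The log2 fold change of Degs1 was -0.96 with the covariate (adjusted p = 0.0543) and -1.17 to -1.12 with 1 library left out. The cause of these shifts was not tested.

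Degs1 and Srebf1 kept their sign in all 28 alternatives run, and each was called in 20 of them. Some of these leave out only a high-fat liver. Of the fits without 1 chow liver, only that without control 2 called Degs1 (adjusted p = 0.0428, edgeR). In the others its adjusted p was 0.0568 to 0.118 (edgeR). Srebf1 was called without control 1, 2 or 4, but not without control 3 or any 1 knockout. Of the 225 genes named by rule, 26 changed sign in at least 1 alternative, and 1313 of 1342 list medians moved by less than the spread between livers. That spread can be wide, with an SD of 0.62 between controls for the Kupffer list. A median within it is thus not shown to be stable. With the covariate the Kupffer median went from -0.43 to -0.07 and the ribosomal protein median from -0.17 to 0.15. Without knockout 1 and high-fat control 3 edgeR called 2 genes, 1 of them among the 2 of the fit with all livers. The common biological coefficient of variation was 0.247, and a gene that did not pass is not shown to be unchanged. No paired analysis was possible because nothing in the labels links a knockout animal to a control animal, and the replicate numbers are only names.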
